A study of Mus musculus with 6 samples.

Results

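The sarcomere genes of heart muscle were followed in RNA of dissected aortic valves, as 9 listed genes: Myl4, Myl7 and Nr2f2 as atrial genes, Myl2, Myl3, Myh7 and Irx4 as ventricular genes, and Myh6 and Actc1 as genes of both chambers. They were read by symbol from the table of 23107 genes, and all 9 were among the 15354 genes tested. The mice were 4 months old and of a strain labelled Outbred. There were 3 libraries from controls, which the labels call wild type, and 3 from mutants labelled caAcvr1:Nfatc1Cre. The mutants carried both a transgene for constitutively active Acvr1, a receptor of bone morphogenetic proteins, that Cre switches on, and an ires-Cre cassette inserted at Nfatc1. By the study's methods, controls lacked the transgene, the Cre or both. Nfatc1 is a gene of the endocardium, and in this study the Cre was active in endocardial cells, in their descendants in the valve leaflets and in cells where leaflet and wall meet, some of which may have another origin, while none was seen in heart muscle or smooth muscle. The sex of the mice and the number of valves in a library are not given in the sources used here. The p-values therefore measure the spread between these libraries, part of which may be technical.

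Heart muscle contracts by the sliding of thick filaments of myosin along thin filaments of actin. Each myosin heavy chain carries an essential and a regulatory light chain, and atria and ventricles use different genes for both. A valve leaflet holds fibroblast-like interstitial cells and endothelium and is not itself built of working heart muscle, but its hinge lies against the wall of the aorta and the muscle at the base of the heart. The 9 genes were thus taken as signs of heart muscle that came with the valve, and the atrial and ventricular forms as signs of which chamber it came from. Nr2f2 is a weaker sign, as veins and other tissues also use it, and its level did not rise with those of the other genes. In RNA of a whole tissue, fewer cells of a type and less RNA per cell cannot be told apart.

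The libraries held between 32218345 and 55728852 fragments, and levels are given as counts per 1000000 fragments of a library (CPM), scaled by the TMM method. Markers of valve interstitial cells were present in every library, with a summed level of 12224 to 15795 CPM over 8 genes led by Dcn, Col3a1 and Vim. Acvr1 lay between 49.1 and 67.3 CPM in all libraries with overlapping groups, and the counts do not separate the transgene from the gene itself. No sequencing batch is named in the labels.

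The atrial light chains were Myl7, the regulatory chain, on chromosome 11 (5896637 to 5898782, minus strand), and Myl4, the essential chain, also on chromosome 11 (104550663 to 104595753, plus strand). Their ventricular counterparts were Myl2, regulatory, on chromosome 5 (122100951 to 122113472, plus strand), and Myl3, essential, on chromosome 9 (110741861 to 110769798, plus strand). Myh6, the fast heavy chain that prevails in the adult mouse heart, and Myh7, the slow heavy chain of the fetal ventricle, are neighbours on the minus strand of chromosome 14, at 54941921 to 54966927 and 54970684 to 54994626. Actc1, the alpha-actin of heart muscle, lies on chromosome 2 (114047282 to 114053548, minus strand). The transcription factors were Irx4, a homeodomain protein of the ventricle, on chromosome 13 (73260479 to 73269608, plus strand), and Nr2f2 (COUP-TFII), a nuclear receptor of atrial muscle that veins and other tissues also use, on chromosome 7 (70351944 to 70366735, minus strand). Positions are those of GRCm38 (mm10) in the GENCODE vM21 annotation.

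RefSeq windows of 250 bases before the start of transcription were searched on both strands for the CArG box, which serum response factor binds, for the MEF2 motif, and for TATAAA and GATAA. A CArG box was in the windows of Myl7, Myl3 and Actc1, which stand for the atrial, the ventricular and the shared genes, and in 1.47% of the 32851 windows of all genes. For the other 6 genes no CArG box was in the window, and the 2 windows listed for Myl2 do not lie at the start that GENCODE gives. Of the 250 bases of the Myl4 and Nr2f2 windows, 208 and 250 lie in annotated exons, as do 77 in a window of Myh7. A missing box says less there. The 3 sequences follow with the CArG box in capitals, each printed on the gene's strand and ending at the base before the start of its GENCODE transcript. They are chr11:5898783-5899032 (minus strand), chr9:110763428-110763645 (plus) and chr2:114052888-114053125 (minus) of GRCm38.p6, and none of their bases lies in an annotated exon. Those of Myl3 and Actc1 lie inside the GENCODE span of the gene, which begins farther upstream than the transcript used.
Myl7: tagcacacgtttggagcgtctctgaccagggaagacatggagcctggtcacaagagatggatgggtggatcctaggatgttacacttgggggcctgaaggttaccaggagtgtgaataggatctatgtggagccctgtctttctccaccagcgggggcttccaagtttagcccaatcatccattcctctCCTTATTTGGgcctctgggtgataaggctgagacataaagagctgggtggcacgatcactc
Myl3: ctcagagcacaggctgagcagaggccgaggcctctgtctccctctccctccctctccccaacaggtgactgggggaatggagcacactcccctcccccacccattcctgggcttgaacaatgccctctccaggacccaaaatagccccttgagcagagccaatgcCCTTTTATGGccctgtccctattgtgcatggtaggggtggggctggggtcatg
Actc1: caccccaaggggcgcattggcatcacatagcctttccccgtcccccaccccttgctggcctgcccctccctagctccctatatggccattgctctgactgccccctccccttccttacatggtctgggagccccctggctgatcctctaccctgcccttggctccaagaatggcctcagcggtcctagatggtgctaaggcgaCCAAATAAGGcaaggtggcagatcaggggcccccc
The CArG box begins at position -61 of Myl7, -85 of Myl3 and -47 of Actc1, counted from the RefSeq start. The MEF2 motif was in none of the members' windows and in 2.92% of all windows. TATAAA was in 12.4% of all windows and, among the members, in 1 of the windows listed for Myl2. GATAA was in 22.6% of all windows and in those of Myl7, Myl3 and Myl2.

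Heart muscle transcripts were abundant in all 6 libraries. The 9 genes together took 2.23%, 0.794% and 2.01% of the fragments of the controls and 2.74%, 1.29% and 1.88% of those of the mutants, given here and below by replicate number from 1 to 3. Control replicate 2 held the least and mutant replicate 1 the most, and the groups overlapped. Myh6 alone ranked between 2 and 14 among all genes by count. Per kilobase of transcript, the mean level over the 6 libraries was highest for Myl7, at 4633 ± 2640 CPM per kb (SD, n = 6), followed by Actc1 at 3140 ± 1146 (SD, n = 6) and Myl3 at 1953 ± 847 CPM per kb (SD, n = 6). Myl4, Myl2 and Myh6 were close to one another, at means of 1315, 1248 and 1052 CPM per kb. Myh7 stood far lower at 67.2 ± 44.0 (SD, n = 6), and the transcription factors were lowest, Nr2f2 at 7.32 ± 1.76 (SD, n = 6) and Irx4 at 4.14 ± 2.52 CPM per kb (SD, n = 6). The order held in all 6 libraries for Actc1 above Myl3, for Myh6 above Myh7 and for Myh7 above Nr2f2. It did not hold for the other neighbours: Myl7 exceeded Actc1 in 4 of 6 libraries, Myl3 exceeded Myl4 in 3, Myl4 exceeded Myl2 in 4, Myl2 exceeded Myh6 in 2 and Nr2f2 exceeded Irx4 in 4.

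**Figure D1:**
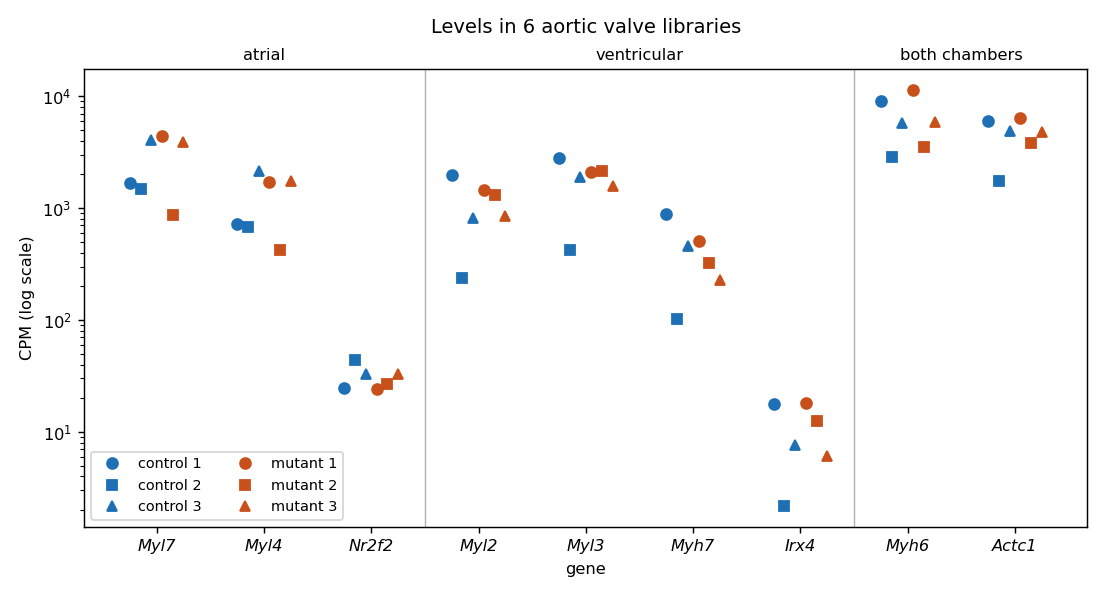
Level of each of the 9 genes in CPM (vertical axis, log scale) in the 3 control libraries (blue) and the 3 mutant libraries (orange), with the replicate number given by the shape. Control 2 is the lowest of the 6 for every ventricular gene and for Myh6 and Actc1, while mutant 2 is the lowest for Myl7 and Myl4, and the groups overlap for all 9 genes.

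The atrial light chains split the libraries without regard to genotype. Myl7 was read at 1686, 1477 and 4076 CPM in the controls and at 4424, 864.9 and 3874 CPM in the mutants. Myl4 was read at 726, 679.8 and 2160.5 CPM in the controls and at 1723.5, 420.1 and 1732 CPM in the mutants. Control replicate 3 and mutant replicates 1 and 3 were thus high for both chains, control replicates 1 and 2 were lower, and mutant replicate 2 was lowest. The log2 fold change, mutants against controls, was 0.34 for Myl7 (standard error 0.66) and 0.12 for Myl4 (standard error 0.65), each with an adjusted p of 0.999 in the quasi-likelihood test of edgeR. Myl4 and Myl7 kept close to one ratio, from 0.39 to 0.53 counts of Myl4 per count of Myl7 across the libraries.

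Nr2f2 did not follow the atrial light chains. Its level was 24.7, 43.9 and 32.8 CPM in the controls and 24.3, 26.7 and 33.1 CPM in the mutants. It was highest in control replicate 2, where Myl7 was among its lower values, and low in mutant replicate 1, where Myl7 was highest. Mutants and controls differed by -0.27 in log2 (standard error 0.23), with an adjusted p of 0.999 in edgeR. Its range from highest to lowest library was 1.80-fold, against 5.12-fold for Myl7 and 5.14-fold for Myl4.

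The ventricular light chains gave another order of libraries. Myl2 was read at 1983, 236.6 and 815 CPM in the controls and at 1467, 1302 and 856 CPM in the mutants. Myl3 was read at 2789, 421 and 1917 CPM in the controls and at 2120.5, 2142 and 1589.8 CPM in the mutants. Control replicate 1 was the highest and control replicate 2 by far the lowest for both genes, so that all 3 mutants lay between these controls. The log2 fold change was 0.26 for Myl2 (standard error 0.67) and 0.19 for Myl3 (standard error 0.60), with an adjusted p of 0.999 for each in edgeR.

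Myh7 and Irx4 shared the low value of control replicate 2. Myh7 was read at 889, 103 and 458 CPM in the controls and at 509, 324 and 229.6 CPM in the mutants, a log2 difference of -0.45 between the groups (standard error 0.69, edgeR adjusted p = 0.999). Irx4 was read at 17.9, 2.17 and 7.60 CPM in the controls and at 18.1, 12.6 and 6.02 CPM in the mutants, a log2 difference of 0.41 (standard error 0.72, edgeR adjusted p = 0.999). Both were highest in control replicate 1 or mutant replicate 1, which differed little for Irx4, and the groups overlapped. The value of Irx4 in control replicate 2 rests on 110 counts. Myh7 and Myh6 transcripts are identical at 90.3% of aligned bases, and 22.2% of the 50-base windows of the Myh7 transcript also occur in Myh6, so that part of their fragments could be assigned to either gene. The library kit does not mark strand, and antisense transcripts, among them Mhrt, overlap exons of Myh7.

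The genes used by both chambers are the heavy chain Myh6 and the actin Actc1. Myh6 was read at 9040.1, 2889 and 5812 CPM in the controls and at 11377, 3536 and 5941 CPM in the mutants. Actc1 was read at 6049, 1756 and 4920.4 CPM in the controls and at 6423, 3826 and 4781 CPM in the mutants. Mutant replicate 1 was the highest and control replicate 2 the lowest of all 6 libraries for both genes. The log2 fold change was 0.23 for Myh6 (standard error 0.57) and 0.24 for Actc1 (standard error 0.48), with an adjusted p of 0.999 for each in edgeR.

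Between mutants and controls, 0 of the 9 genes passed the adjusted threshold of 0.05 in edgeR, as did 0.0% of all 15354 genes tested. At an unadjusted p under 0.05 the count was also 0 of 9, against 3.45% of all genes. In DESeq2 0 of 9 passed, against 0.169% of all genes, and each member's adjusted p was 1.00. The groups overlapped for all 9, whereas they did not overlap for 8.87% of the genes tested. In 7 of the 9 the fold change was above 0, with a median of 0.23 on the log2 scale beside 0.0097 over all genes tested. Every standard error other than that of Nr2f2 was at least 0.48 on the log2 scale. The sign rested on single libraries in 8 of the 9 genes. Without control replicate 2, the log2 fold changes of Myl4, Myl2, Myl3, Myh6, Irx4 and Actc1 were -0.16, -0.21, -0.27, -0.094, -0.050 and -0.13. Without control replicate 1, those of Myl2, Irx4 and Myh7 were 1.2, 1.33 and 0.34. Without mutant replicate 1, those of Myl4, Myl7 and Myh6 were -0.14, -0.026 and -0.32, and without control replicate 3 that of Myl7 was 0.95 and that of Myl4 0.87. Nr2f2 was lower in the mutants in each such fit, from -0.45 to -0.034.

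**Figure D2:**
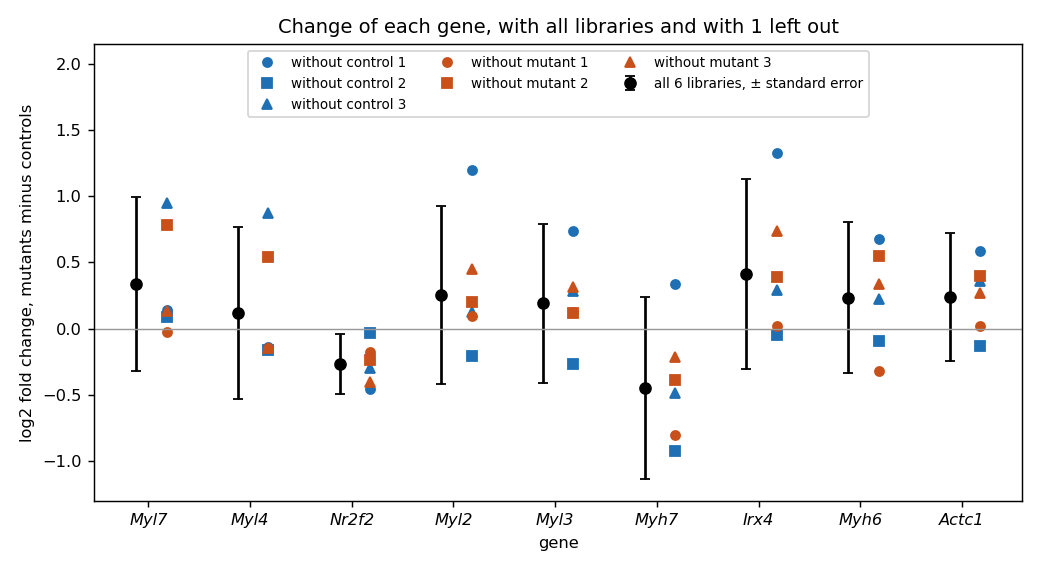
Log2 fold change of each gene, mutants minus controls (vertical axis), from all 6 libraries (black, with the standard error of the edgeR fit) and with 1 library left out (coloured points, named by the library left out). The points of 8 genes lie on both sides of 0, those of Myl2 from -0.21 to 1.2, and those of Nr2f2 all lie below 0.

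Over the 6 libraries the coefficient of variation of CPM was 65.4% for Myh7, 60.9% for Irx4, 57.8% for Myl4, 57.0% for Myl7 and 54.7% for Myl2, beside a median of 16.7% over all genes tested. Between 5.74% and 14.8% of the genes tested varied more than Myh7, Irx4, Myl4, Myl7, Myl2, Myh6 or Myl3 did. Of the genes tested, 19.8% varied more than Actc1 and 34.4% more than Nr2f2.

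Ratios of counts within a library, which do not depend on how libraries are scaled, set an atrial against a ventricular form. Myl7 to Myl2, the regulatory light chains, was 0.85, 6.24 and 5.0 in the controls, given in the order of their replicate numbers, and 3.02, 0.664 and 4.53 in the mutants. Control replicate 1 and mutant replicate 2 had fewer counts of Myl7 than of Myl2, and the other 4 libraries at least 3.02 times as many. Per kilobase of transcript the ratio was 1.28 and 1.00 in these 2 libraries and at least 4.545 in the others, so that on that scale Myl7 was not below Myl2 in any library. Myl4 to Myl3, the essential light chains, gave the same order of libraries, at 0.26, 1.61 and 1.13 in the controls and 0.813, 0.196 and 1.09 in the mutants. Per kilobase it was 0.259, 1.60 and 1.12 in the controls and 0.808, 0.195 and 1.08 in the mutants. Myl4 thus stayed below Myl3 on that scale in control replicate 1 and mutant replicates 1 and 2. The ratio spanned 9.40-fold for the regulatory and 8.22-fold for the essential pair, against 1.36-fold for Myl4 to Myl7 and 1.67-fold for Myl2 to Myl3, the pairs within a chamber.

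The heavy chains differed less. Myh6 to Myh7 was 10.2, 28.1 and 12.7 in the controls and 22.4, 10.9 and 25.9 in the mutants. It was high in control replicate 2 and mutant replicates 1 and 3, and low in control replicates 1 and 3 and mutant replicate 2. The mean log2 ratio, mutants minus controls, was -0.52 for Myl7 to Myl2, -0.48 for Myl4 to Myl3 and 0.27 for Myh6 to Myh7. Over the 3 ratios, a two-sided exact permutation test gave p = 0.5, 0.5 and 0.9, and 0.75, 0.75 and 0.9 after adjustment, where 3 libraries against 3 cannot give a p under 0.1. The first 2 differences were 0.017 and 0.042 without control replicate 2, and 0.31 and 0.27 without mutant replicate 2. Without control replicate 1 the third was -0.030.

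**Figure D3:**
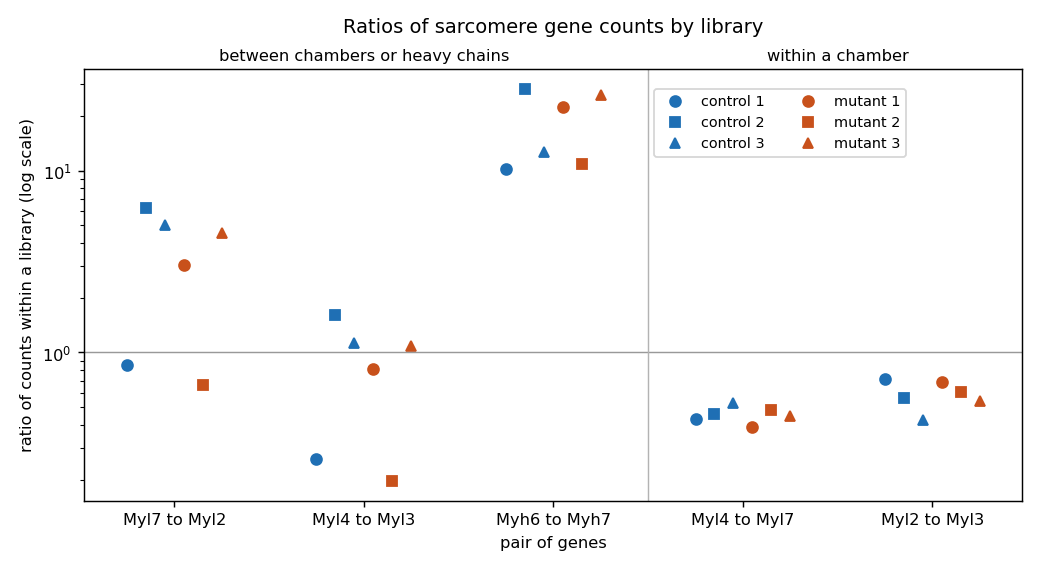
Ratio of the counts of 2 genes within each library (vertical axis, log scale) for 3 pairs between chambers or heavy chains and for 2 pairs within a chamber, with controls in blue and mutants in orange. Myl7 to Myl2 runs from 0.664 in mutant 2 to 6.24 in control 2, while Myl4 to Myl7 stays between 0.39 and 0.53.

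The mean log2 CPM of the 3 atrial genes lay 2.29, 1.27 and 1.52 above that of the 4 ventricular genes in control replicates 2 and 3 and mutant replicate 3, and 0.47 above it in mutant replicate 1. In control replicate 1 and mutant replicate 2 the difference was -0.81 and -0.62. This sign depends on the genes averaged. With Myl4 and Myl7 alone, leaving out Nr2f2, the lowest of the 3, the difference was above 0 in all 6 libraries. It was 1.01 and 0.87 in these 2 and from 2.74 to 3.79 in the others. The ventricular mean then still held Irx4, which was low too. Between light chains, counts of Myl7 were below those of Myl2 in these 2 libraries, at ratios of 0.85 and 0.664. The ratios of Myl4 to Myl3 there were 0.26 and 0.196. The high value of control replicate 2 came with the lowest ventricular mean, 6.18, while its mean of the atrial light chains, 9.97, was below those of control replicate 3 (11.5) and mutant replicates 1 and 3 (11.4 and 11.3).

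All 6 pairs of ventricular genes varied together over the 6 libraries, with Pearson's r of log2 CPM from 0.907 to 0.973 and Spearman's rho from 0.829 to 0.886, and the r passed in an exact permutation test adjusted over all 36 pairs (adjusted p from 0.0286 to 0.0455). Myl4 and Myl7 gave r = 0.988 (rho 0.829, adjusted permutation p = 0.0333). Between the atrial light chains and the ventricular genes the 8 values of r lay from 0.017 to 0.203, and from 0.122 to 0.430 without the 2 libraries farthest from the median of the first gene. Myh6 and Actc1 gave r = 0.888 with each other (rho 0.943, adjusted permutation p = 0.0286), from 0.688 to 0.928 with the ventricular genes and from 0.46 to 0.63 with the atrial light chains. None of these 8 pairs with ventricular genes and 4 with atrial light chains passed, with lowest adjusted permutation p of 0.0583 and 0.30. Without the 2 libraries farthest from the median of the first gene of each pair, the 8 values fell to between 0.037 and 0.671 (0.050 for Myl3 with Actc1), and the 4 lay between 0.268 and 0.551.

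Nr2f2 had a negative r with the ventricular genes and with the genes of both chambers. Its r was -0.995 with Irx4, -0.97 with Myl2, -0.904 with Myl3 and -0.869 with Myh7, with adjusted exact permutation p of 0.0286, 0.0286, 0.0333 and 0.0808, and its r with Myl7 was -0.035. With Actc1 and Myh6 it was -0.845 and -0.72 (adjusted exact permutation p = 0.0833 and 0.189), so that Myh7, Actc1 and Myh6 did not pass. With Irx4 the order of the 6 libraries was exactly reversed (rho -1.0). In all, 11 of the 36 pairs passed by r and 0 by rho, where the smallest adjusted permutation p was 0.1. Without the 2 libraries farthest from the median of the first gene, r was -0.982 for Nr2f2 with Irx4, -0.975 with Myl2, -0.913 with Myl3, -0.65 with Myh7, -0.19 with Actc1 and -0.15 with Myh6. It was 0.994 for Myl4 with Myl7 and 0.996 for Myh6 with Actc1. It fell to 0.385 for Myl2 with Myh7, which rests on control replicates 1 and 2 and was then below the 0.430 of Myl7 with Myl3, and lay between 0.635 and 0.957 for the other ventricular pairs. All of these values share 6 libraries and 1 scaling, and genotypes are mixed among them.

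**Figure D4:**
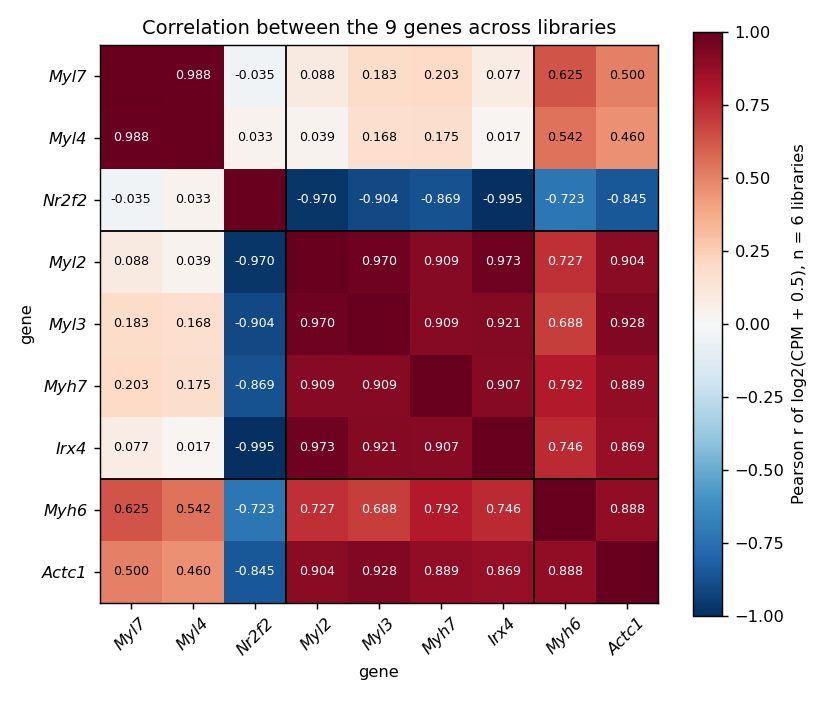
Pearson's r of log2(CPM + 0.5) between the 9 genes over 6 libraries (colour and number in each cell, from -1 in blue to 1 in red), with lines between atrial, ventricular and shared genes. The ventricular block is at 0.907 or above, the cells of Myl7 and Myl4 against it are at 0.203 or below, and the row of Nr2f2 against it runs from -0.869 to -0.995.

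The genes whose log2 CPM was most like that of Myl7 over the 6 libraries, among 13692 other genes with a mean of at least 1 CPM, were Mapk10, Mcm8, Cnih4, Sln and Mob1b, with r from 0.99 to 0.998. Sln encodes sarcolipin, an inhibitor of the calcium pump in atrial muscle, and was read at 597, 584 and 1546 CPM in the controls and at 1624, 249 and 1297 CPM in the mutants. Most like Myl2 were Thbs1, Cpxm2, Rhd, Eif3j and Cd74 (r from 0.991 to 0.998), and most like Nr2f2 were Nell2, Sbsn, Cgn, Fryl and Spire2 (r from 0.99 to 0.998). With 6 libraries and this many genes, high values of r arise readily, and they are given as a description.

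Other genes of heart muscle were read from lists of known markers, written for each role. Of 10 other atrial genes 9 were tested, 6 higher and 3 lower in the mutants, with a median log2 fold change of 0.028 that changed sign with the library left out (-0.22 without control replicate 2 and -0.23 without mutant replicate 1). The most abundant were Nppa, which encodes atrial natriuretic peptide, Sln and Mybphl, a myosin-binding protein, with log2 fold changes of -0.93, 0.22 and 0.028 (standard errors 0.68, 0.69 and 0.65). The value of Nppa rested on control replicate 3 and was 0.065 without it. Of the 32 genes that lead these and the following lists, 3 to a list, 22 changed sign with some library left out. Mybphl was read at 136.0, 136.1 and 376 CPM in the controls and at 290.0, 61.7 and 309.6 CPM in the mutants, the same 3 libraries being high as for Myl7. Bmp10, a ligand of the right atrium, had 0 counts in 5 libraries and 2 in mutant replicate 3, and was not tested.

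All 4 other ventricular genes were higher in the mutants, with a median of 0.16, but -0.14 without control replicate 2 and -0.082 without mutant replicate 1. Pln, the phospholamban that restrains the calcium pump, was read at 2022, 480.2 and 1237 CPM in the controls and at 2075, 1332 and 1142 CPM in the mutants, with its low value in control replicate 2 as for Myl2. Hey2, a repressor in the compact ventricular wall that vessels also use, did not share that low value, at 58.1 CPM in control replicate 2 and 39.7 to 68.7 CPM elsewhere. Kcnj2, an inward rectifier potassium channel, was read at 8.26 CPM in control replicate 2 and at 13.3 to 25.8 CPM elsewhere.

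Of 20 other sarcomere genes, 18 were higher and 2 lower in the mutants, with a median of 0.20. Tnnt2 and Tnni3, which encode cardiac troponins T and I, and Mybpc3, the cardiac myosin-binding protein C, had log2 fold changes of 0.20, 0.33 and 0.037 (standard errors 0.46, 0.49 and 0.63). Of 15 genes of calcium handling and metabolism 14 were higher, with a median of 0.19. Atp2a2, the calcium pump of the sarcoplasmic reticulum, Mb, myoglobin, and Fabp3, a fatty acid carrier, had log2 fold changes of 0.23, 0.29 and 0.33 (standard errors 0.49, 0.51 and 0.53). None of these 4 lists held a gene with an adjusted p under 0.05 in edgeR or DESeq2. They held 9, 4, 20 and 15 tested genes, of which 1, Slc8a1, had an unadjusted p under 0.05 in edgeR. Of all genes tested, 3.45% did. The summed level of both the sarcomere list and the calcium and metabolism list was lowest in control replicate 2 (6421 and 6215 CPM) and highest in mutant replicate 1 (23806 and 22618 CPM). Without control replicate 2 their medians were -0.12 and -0.11, so that their direction rested on that library. The median of the sarcomere list was -0.055 without mutant replicate 1.

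Markers of the other tissues moved with these libraries in part. The 8 smooth muscle genes had a summed level of 7323, 16286 and 7344 CPM in the controls and of 2826, 6835 and 7569.5 CPM in the mutants, highest where the heart muscle genes were lowest and lowest where they were highest. All 8 were lower in the mutants, with a median log2 fold change of -0.87, and -0.43 without control replicate 2. The leading ones were Acta2, Tagln and Myl9, with -0.78, -0.90 and -0.70, and an adjusted p of 0.999 for each in edgeR. The 8 markers of valve interstitial cells had a median of 0.019, which lay between -0.15 and 0.15 with 1 library left out. The median was -0.15 for the 6 genes of endothelium and -0.11 for the 5 of venous and lymphatic endothelium. Without control replicate 2 the endothelial median was -0.028, and without control replicate 1 it was -0.31. The venous and lymphatic median was -0.057 without control replicate 2 and -0.35 without mutant replicate 1, and lay between -0.26 and -0.18 with any other library left out. Their summed levels varied less, from 1302 to 2122 CPM for endothelium and from 381 to 627 CPM for venous and lymphatic endothelium, each highest in control replicate 2, where Nr2f2 was highest too. Pecam1, Vwf and Tie1 led the endothelial list, with log2 fold changes of 0.069, -0.12 and -0.19, and Ephb4, Flt4 and Lyve1 the venous and lymphatic one, with -0.11, -0.63 and -0.086. The 12 skeletal muscle markers summed to between 95.1 and 211.0 CPM in a library. Of these, Myh1, Myh2, Myh4 and Tnnc2 had at most 15 counts in any library and were not tested, and of the 8 tested, 5 were higher and 3 lower, with a median of 0.21. It was -0.18 without mutant replicate 1 and lay between 0.014 and 0.34 with any other library left out. The most abundant of that list were Myl1, Mybpc2 and Actn3, at means of 88.4, 49.3 and 2.70 CPM. The part of the other tissues in the values of the 9 genes was not tested.

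**Figure D5:**
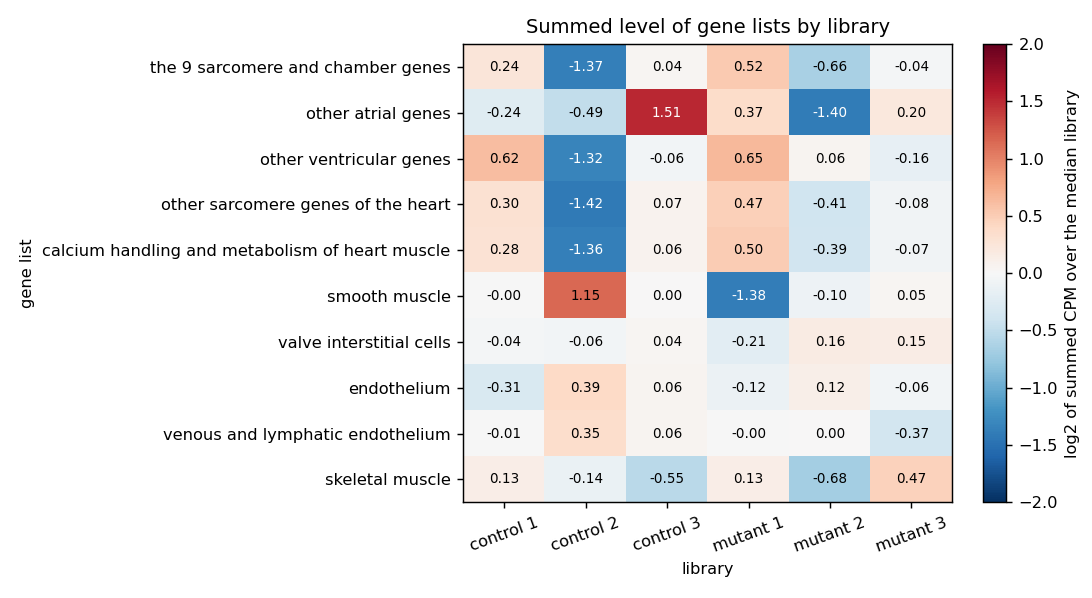
Summed CPM of the 9 genes and of 9 gene lists, those of transcription factors and of fetal and stress genes left out, in each library as the log2 of its ratio to the median library (colour and number in each cell). Control 2 lies at -1.37 for the 9 genes and at 1.15 for smooth muscle, mutant 1 at 0.52 and -1.38, and valve interstitial cell markers stay between -0.21 and 0.16.

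Transcription factors and stress genes did not move as a block. Of 12 cardiac transcription factors 7 were higher and 5 lower in the mutants, with a median of 0.19, which was 0.042 without mutant replicate 1 and 0.078 without control replicate 2. In edgeR 0 of them had an adjusted p under 0.05 and 4 of the 12 an unadjusted one, beside 3.45% of all genes tested, and DESeq2 called 0. The most abundant were Gata4, Tbx20 and Gata6, with log2 fold changes of 0.37, 0.75 and -0.0093 (standard errors 0.18, 0.19 and 0.092). Tbx20, a T-box factor that heart muscle, endocardium and valve cells use, was read at 203, 131 and 213 CPM in the controls and at 316, 307 and 297 CPM in the mutants. The groups did not overlap (unadjusted p = 0.0059 and adjusted p = 0.999 in edgeR). Of 7 fetal and stress genes 2 were higher and 5 lower, with a median of -0.086. That median was 0.44, 0.083, 0.086 and 0.21 without control replicate 1, control replicate 3, mutant replicate 2 and mutant replicate 3, and -0.32 and -0.78 without control replicate 2 and mutant replicate 1, so that its direction rested on single libraries. Ankrd1, a stress-responsive protein of the sarcomere, and Acta1, the skeletal alpha-actin that fetal heart muscle uses, had log2 fold changes of -0.17 and -0.90 (standard errors 0.56 and 1.14). Acta1 was highest in control replicate 1 at 1253 CPM and between 60.2 and 477 CPM elsewhere, and its log2 fold change was 1.51 without that library.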

How the data were processed

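Aortic valve RNA was sequenced by the authors after TruSeq library preparation on an Illumina HiSeq4000. Reads were aligned to mm10, with Bowtie2 and, per the labels' processing notes, TopHat2 2.0.13, and quantified with Cufflinks and Cuffdiff 2.1.1. The deposited values are estimated counts, the fragments that Cuffdiff assigned to each gene, not scaled for library size, and were rounded here. The share of values not exactly equal to a whole number, with no tolerance, ran from 1.66% to 1.87% over the libraries. Each column was matched to its library by the sample description, and no other column was used.

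The main test was the two-sided quasi-likelihood F test of edgeR 4.0.16 in R 4.3.3, with TMM and no covariates. It took genes that reached 10 counts in 3 or more libraries, with Benjamini-Hochberg adjustment over all of them and a threshold of 0.05. A standard error is the absolute fold change over the square root of F, and the biological coefficient of variation was 0.278. CPM is the count per 1000000 of the TMM-scaled library, a count of 0 allowing at most 0.0559 to 0.0941 CPM (3 counts, counting error only). CPM per kb divides it by the length of 1 GENCODE transcript a gene. For ratios 0.5 counts were added to each gene, and for correlations 0.5 CPM before the log2. Exact permutation tests over libraries were run in Python 3.11.15. The alternatives were DESeq2 1.42.0, upper-quartile scaling, library totals, 2 filters, the replicate block, limma-voom (limma 3.58.1) alone or with sample quality weights, and leaving out each library. No chi-square comparison of 2 libraries was within sampling noise. The scripts were tested on simulated data. The 9 genes, the gene lists and the tests were chosen with earlier results of these data known. The genes named are the 9, the 3 most abundant of each list and the 5 most like Myl7, Myl2 and Nr2f2, and Bmp10, Slc8a1, Hand1, Hand2, Mef2c and the untested skeletal muscle genes are named after their values were seen.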

Additional observations from a re-analysis of the deposited data

How the results depend on the processing

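Of 135 values of the 9 genes under the alternatives, 120 kept their direction and 0 passed an adjusted threshold. The smallest adjusted p was 0.901. The count of genes called was 0 in all settings but DESeq2, which gave 26 (21 higher and 5 lower in the mutants), none of them among the 9, and it was 0 with each library left out in turn. Scaling by genes outside heart muscle, chosen after seeing the data, reversed none of the 9. Under voom with sample quality weights Myl4, Myl7 and Myh6 were reversed, at -0.21, -0.089 and -0.10. Under voom alone none was reversed, but sizes moved. Myl2, Myl3, Irx4 and Actc1 were higher than in the main test, at 0.68, 0.55, 0.82 and 0.37. Myl4, Myl7 and Myh6 were lower, at 0.055, 0.16 and 0.19, while Myh7 was -0.085 and Nr2f2 -0.26. With the replicate number as a block (replicate block) the count was also 0, and the log2 fold changes ran from -0.24 for Nr2f2 to 0.67 for Irx4, with 0.65 for Myl2. Samples of one number correlated at 0.373, 0.171 and 0.0194 in their deviations from the group means, and control replicate 2 correlated best with mutant replicate 3 (0.237), so that the numbers were not taken as pairs. Leaving out 1 library at a time reversed 12 of 54 values: the log2 fold changes ran from -0.16 to 0.87 for Myl4, -0.026 to 0.95 for Myl7, -0.45 to -0.034 for Nr2f2, -0.21 to 1.2 for Myl2, -0.27 to 0.74 for Myl3, -0.32 to 0.68 for Myh6, -0.92 to 0.34 for Myh7, -0.050 to 1.33 for Irx4 and -0.13 to 0.59 for Actc1. The log2 ratio differences ran from -1.42 to 0.31 for Myl7 to Myl2, -1.27 to 0.27 for Myl4 to Myl3 and -0.030 to 0.70 for Myh6 to Myh7, and adding 5 counts in place of 0.5 moved none of them past 0. The list medians were recomputed after seeing the data. With 1 library left out they ran from -0.23 to 0.52 for other atrial genes, -0.14 to 0.55 for other ventricular genes, -0.12 to 0.59 for other sarcomere genes, -0.11 to 0.57 for calcium handling and metabolism, -0.78 to 0.44 for fetal and stress genes, -0.18 to 0.34 for skeletal muscle and -0.15 to 0.15 for valve interstitial cells. The log2 fold change of Nppa then ran from -1.29 to 0.065 and that of Acta1 from -1.71 to 1.51. Under voom with quality weights the medians of other atrial, sarcomere, calcium and metabolism and skeletal muscle genes were -0.28, -0.058, -0.0090 and -0.035. That of other atrial genes was -0.046 under voom and -0.12 with the replicate block, and that of valve interstitial cells -0.0043 with the replicate block. The cause of these reversals was not tested.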

Other observations

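Ratios of Nppa, the gene of atrial natriuretic peptide, to other heart muscle genes were chosen after the values were seen and are given as a description. Counts of Nppa per count of Myl7 were 2.03, 1.85 and 3.02 in the controls and 0.955, 1.73 and 1.02 in the mutants, by replicate number. The highest mutant was thus below the lowest control. Per count of Myl4 they were 4.71, 4.02 and 5.71 in the controls and 2.45, 3.57 and 2.28 in the mutants, again without overlap. As Myl4 and Myl7 kept close to one ratio, this largely repeats the result for Myl7. How often ratios of other genes do not overlap between the groups was not tested. The mean log2 ratio differed by -0.92 and -0.81, mutants minus controls. The groups overlapped for Nppa to Sln and Mybphl, which are atrial too, and to Tnnt2. The level of Nppa itself overlapped between the groups, at 3425, 2731 and 12328 CPM in the controls and 4226, 1499 and 3952 CPM in the mutants.

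Among the cardiac transcription factors, the groups did not overlap for 4 of 12 (33.3%), beside 8.87% of all genes tested. Tbx20 and Hand2 were higher in every mutant and Mef2c and Hand1 lower, with log2 fold changes of 0.75, 0.30, -0.32 and -1.32, and each had an adjusted p of 0.999 in edgeR. The value of Hand1 (standard error 0.55) rests on few counts, 58, 89 and 40 in the controls and 22, 10 and 26 in the mutants. In the sarcomere list and among the other atrial and ventricular genes the same count was 0. It was 3 of 8 (37.5%) for smooth muscle, 1 of 8 (12.5%) for skeletal muscle and 1 of 15 (6.67%) for calcium handling and metabolism.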
